A study of Mus musculus with 18 samples.

Results

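Adipokines, lipogenic enzymes and the uncoupling protein Ucp1 were followed in 3 tissues of dystrophic mice: extraocular muscle, which turns the eyeball, leg muscle and heart. The genes are Adipoq, Retn, Cfd, Fabp4, Scd1, Fasn, Thrsp and Ucp1, and a probe set was taken where the platform annotation gives it 1 of these symbols and no other. This found 10 probe sets for 7 of the 8 genes, among 12422 probe sets that are not controls and 8251 genes with a probe set of their own. No value is given for Cfd, which no probe set carries as its only symbol. Of the 10 probe sets, 9 passed a filter on low values (above the 40th percentile of an array on at least 3 of the 18 arrays) and were tested with the other 8879 probe sets that passed it.

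Total RNA had been hybridised to 18 mouse expression arrays, 3 for each tissue and genotype, all from mice of 8 weeks. The mdx mice carry a mutation of the dystrophin gene and are the controls by the labels. The comparison mice are labelled dko, which by usual usage stands for loss of both dystrophin and its relative utrophin, so that the lack of dystrophin is common to all 6 groups. The labels give no strain, sex or pooling and do not tell whether the 3 samples of a group are different animals. A p-value here therefore rests on sample-to-sample spread that may be technical.

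White fat cells store triglyceride and secrete adipokines, hormones that act on muscle, liver and the immune system. Lipogenic cells build fatty acids from citrate-derived acetyl units and desaturate them before they are stored. Brown fat cells burn fatty acids for heat through Ucp1, which lets protons leak across the inner mitochondrial membrane. Muscle fibres burn fatty acids but make little of these proteins, and fat cells lie between muscles and around the eye and the heart.

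The stretches before the transcription starts of 4 of the genes are shown because these genes stand for the roles described here, and they hold the sequence that was searched. They are the 250 bases upstream of the start in RefSeq (build GRCm38.p6), and capitals mark the letters CCAAT on either strand, the motif named for the CCAAT box. RefSeq promoters were matched for 6 of the 8 symbols, Scd1 and Fabp4 being the others.
Adipoq, chr16:23146286-23146535, plus strand: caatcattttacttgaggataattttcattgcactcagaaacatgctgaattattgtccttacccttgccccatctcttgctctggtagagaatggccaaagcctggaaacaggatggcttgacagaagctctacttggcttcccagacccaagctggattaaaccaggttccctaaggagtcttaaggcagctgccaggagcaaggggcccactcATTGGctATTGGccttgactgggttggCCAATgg
Fasn, chr11:120824548-120824797, minus strand: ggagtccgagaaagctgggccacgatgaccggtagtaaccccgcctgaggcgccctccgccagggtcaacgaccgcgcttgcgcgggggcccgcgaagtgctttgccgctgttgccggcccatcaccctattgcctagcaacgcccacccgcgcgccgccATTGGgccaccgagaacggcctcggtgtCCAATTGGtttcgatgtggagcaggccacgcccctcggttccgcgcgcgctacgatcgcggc
Thrsp, chr7:97417551-97417800, minus strand: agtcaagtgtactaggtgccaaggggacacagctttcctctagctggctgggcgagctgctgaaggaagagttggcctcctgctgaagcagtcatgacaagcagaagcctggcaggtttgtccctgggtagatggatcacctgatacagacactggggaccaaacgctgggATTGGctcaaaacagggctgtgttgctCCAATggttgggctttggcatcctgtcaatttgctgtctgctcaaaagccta
Ucp1, chr8:83290098-83290347, plus strand: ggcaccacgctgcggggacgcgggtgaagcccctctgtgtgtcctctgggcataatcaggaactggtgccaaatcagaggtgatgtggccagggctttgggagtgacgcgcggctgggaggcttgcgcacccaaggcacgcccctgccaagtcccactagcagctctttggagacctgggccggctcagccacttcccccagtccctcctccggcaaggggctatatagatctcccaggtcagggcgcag
The Adipoq and Fasn stretches each hold 3 matches, 2 of those in Fasn overlapping on opposite strands, and the Thrsp stretch holds 2. Ucp1 holds 0, as do the stretches of Retn and Cfd, which are not shown. Of 32851 mouse promoters of this length, 33.8% hold the motif. Matches to TATAAA (12.4% of promoters), to TCACNCCAC, a form of the sterol response element (1.05%), and to CACGTG, the core of the carbohydrate-response E box (6.02%), were also searched on both strands, with 0 found in the 6 members' stretches. A match is a run of letters and not a measured binding site.

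The genotype labels, and the heart label among the tissues, were checked on genes that define them. Utrn, which encodes utrophin, read lower on every dko array than on every mdx array of the same tissue at probe set 92507_at, for example 219.9 to 292.3 against 587.6 to 672.1 in heart. At its other probe set, 92508_s_at, the genotypes overlapped in leg (233 to 645.7 in dko, 437.8 to 738.2 in mdx) and did not in the other tissues. Myh6, the myosin of heart muscle, read 6873.7 to 68085.4 in heart, 500.6 to 1764.8 in extraocular muscle and at most 132.9 in leg. No gene was used to check the extraocular label against leg. Some arrays stood apart. Those numbered 3 had lower medians in all groups, 525.6 to 573.75 against 612.6 to 671.8 on the others. Leg mdx array 2 was low in some genes of fast fibres. It read 461.3 for Myh4 (fast myosin) and 520.2 for Actn3 (fast-fibre actinin), where the other 5 leg arrays read at least 10917.9 and 10541.9. Not all genes listed for skeletal muscle fell this way. On every leg mdx array Myh1 read at least 20582.5, Tnnt3 19491 and Pvalb 26156.1, while the lowest leg mdx values of Tnnc2 and Atp2a1 were 700.1 and 1038.8.

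Extraocular muscle had the highest levels of the adipokines Adipoq and Retn. Adipoq, which encodes adiponectin, the hormone that raises insulin sensitivity, is read by probe set 99104_at. In extraocular muscle it read 10417.6, 7580.6 and 6353.6 intensity units on mdx arrays 1, 2 and 3, and 10039.8, 5112.7 and 5335 on dko arrays 1, 2 and 3. In heart it read 3160.3, 2666.9 and 667 (mdx) and 2300.7, 447.3 and 385.1 (dko), and in leg 1358.2, 526.3 and 459.6 (mdx) and 769.8, 801.6 and 481.2 (dko). Every extraocular array lay above every heart and leg array, while heart and leg overlapped. The group means ran from 8117 ± 2080 (SD, n = 3) in extraocular mdx to 684.2 ± 177 in leg dko, and the only neighbours in that order with separate ranges were extraocular dko and heart mdx.

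Differences were taken as log2(intensity + 166.7), the offset being the median of the arrays' 25th percentiles, so that a dim probe set shows less than the ratio of its means. On that scale Adipoq was 3.11 higher in extraocular muscle than in leg (95% interval 2.24 to 3.97, 8.61-fold, limma adjusted p = 0.000146) and 2.43 higher than in heart (5.38-fold, adjusted p = 0.000494), as the mean of both genotypes. The comparisons of a tissue with leg share the leg arrays. In RNA of whole tissue, more fat cells and more of an RNA per cell cannot be told apart, here and for the other genes.

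Retn encodes resistin, a hormone of mouse fat cells that opposes insulin. Its probe set 102366_at read 2388.4, 2112 and 689.5 in extraocular mdx, 1897.3, 1136.5 and 1035.8 in extraocular dko, and 989.3, 684.5 and 244.9 in heart mdx. It read 225, 92.5 and 92.5 in heart dko, 91.9, 78.3 and 313.5 in leg mdx and 70.6, 91.9 and 83.3 in leg dko. All 6 extraocular arrays and heart mdx arrays 1 and 2 lay above their array's 40th percentile, and the other 10 arrays did not. The extraocular level was 2.51 higher than leg (5.71-fold, adjusted p = 6.6e-05), with no overlap, and 1.76 higher than heart (3.39-fold, adjusted p = 0.000613), where the ranges overlapped.

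Fabp4 encodes the fatty acid carrier of fat cells, which endothelial cells and macrophages also make, and it went a different way from Adipoq and Retn. Probe set 100567_at read 2614.3, 2001 and 1676.2 in extraocular mdx, 2612.2, 1871.7 and 929.6 in extraocular dko, and 2486.9, 2061.4 and 1510.3 in leg mdx. It read 2729.3, 1612.1 and 992.6 in leg dko, 2164.8, 2344.8 and 2201.3 in heart mdx and 2729.2, 2204.5 and 2099.5 in heart dko. All 6 groups overlapped. The difference between extraocular muscle and leg was 0.037 (95% interval -0.48 to 0.55, adjusted p = 0.98). In 5 of the 6 groups array 1 was the highest and array 3 the lowest, as the array medians are, and the part of the array number in this was not tested.

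**Figure D1:**
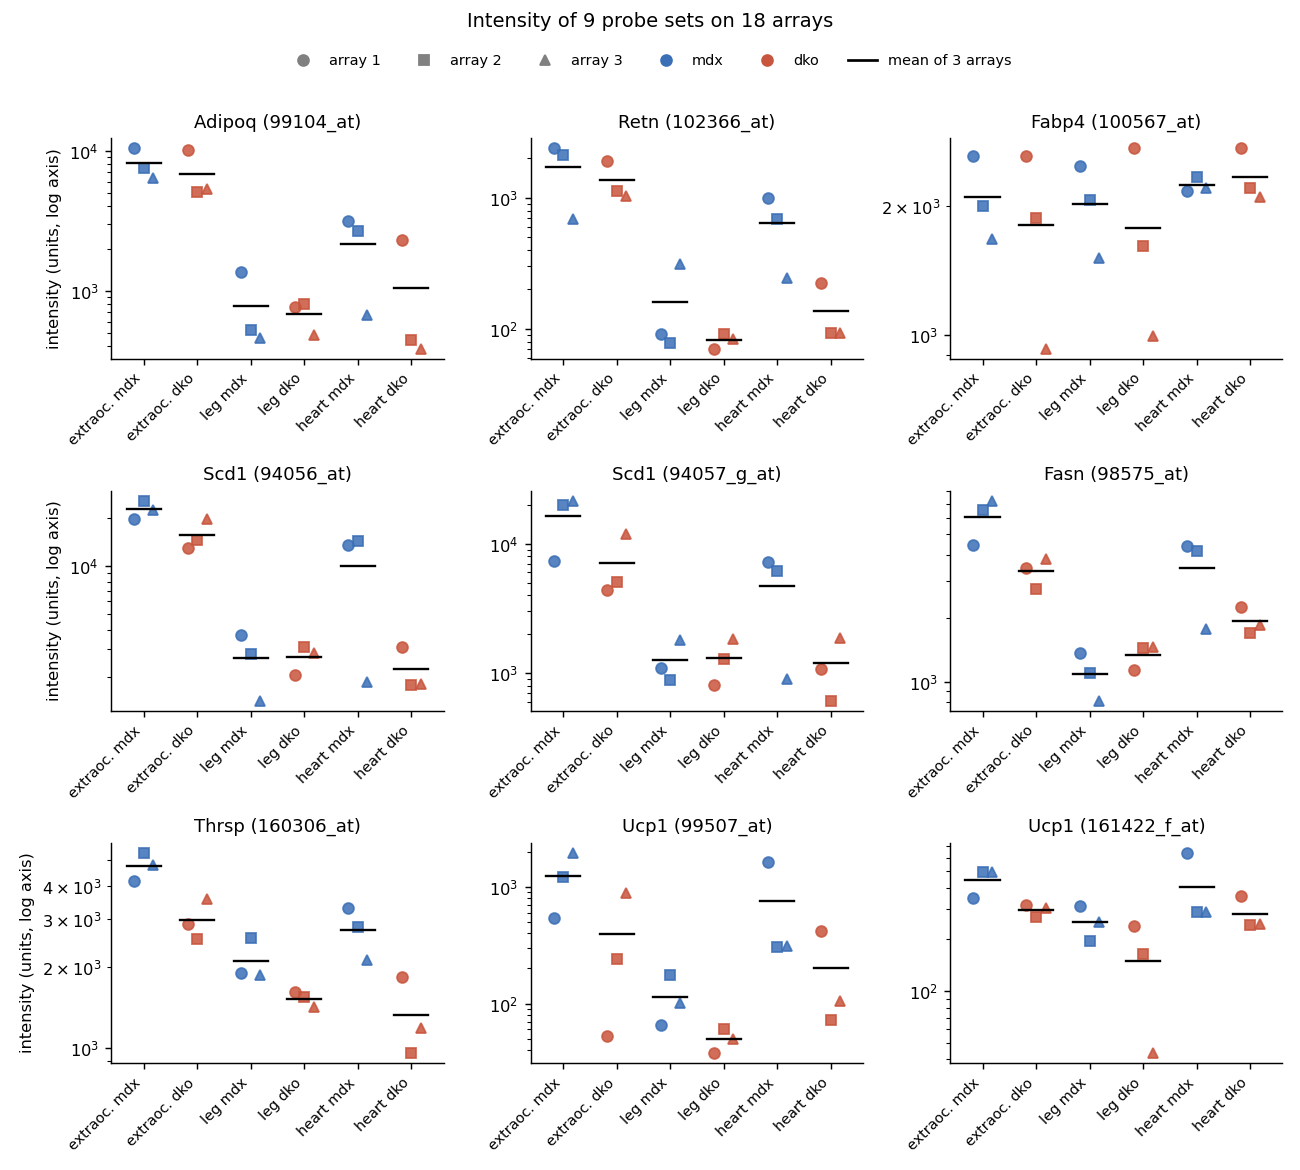
Intensity (log axis, a scale of its own in each panel) of the 9 tested probe sets in the 6 groups, with a symbol for each array number, blue for mdx, red for dko and a bar at the mean of 3 arrays. Both extraocular groups have the highest means for Adipoq, Retn, Scd1 and Thrsp, the Fasn mean of heart mdx (3453) is above that of extraocular dko (3353), and the groups overlap for Fabp4.

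As means of both genotypes, the lipogenic genes were also higher in extraocular muscle than in leg and heart. Scd1 encodes stearoyl-CoA desaturase, which turns saturated into monounsaturated fatty acids. Its probe set 94056_at read 19792.3, 25848.3 and 22656 in extraocular mdx and 13021.9, 14659.2 and 19672.8 in extraocular dko. In heart it read 13667.9, 14453.8 and 1866.3 (mdx) and 3127, 1794.6 and 1831.9 (dko), and in leg 3675.7, 2816.8 and 1422.9 (mdx) and 2069.9, 3102.3 and 2858.2 (dko). Extraocular and leg arrays did not overlap, and heart mdx arrays 1 and 2 reached the extraocular dko range while the other 4 heart arrays lay in the leg range. The level in extraocular muscle exceeded leg by 2.80 (6.96-fold, adjusted p = 0.000278) and heart by 2.18 (4.53-fold, adjusted p = 0.001).

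Another Scd1 probe set, 94057_g_at, gave like differences of 2.82 (adjusted p = 0.000908) and 2.20 (adjusted p = 0.00304). It read 7394.3, 20038.6 and 21571.1 in extraocular mdx, 4364.2, 5021.7 and 11887.2 in extraocular dko, and 610.5 to 7171.2 over heart and 805.4 to 1822.9 over leg. The third Scd1 probe set, 94058_r_at, read 36.9 to 415.3 over all arrays and lay above the 40th percentile on 1 of them, so it was not tested.

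Fasn encodes fatty acid synthase, which assembles palmitate. Its probe set 98575_at read 4455.3, 6501.3 and 7229.9 in extraocular mdx, 3469, 2760.4 and 3830.2 in extraocular dko, 4407.5, 4168.1 and 1784.6 in heart mdx and 2252.4, 1696.2 and 1859.7 in heart dko. In leg it read 1370.7, 1095.6 and 809.3 (mdx) and 1131, 1446 and 1452.7 (dko). Leg lay below both other tissues with no overlap. The extraocular level was 1.76 higher than leg (3.39-fold, adjusted p = 6.5e-05) and 0.80 higher than heart (1.74-fold, adjusted p = 0.0166), and the heart level was 0.96 higher than leg (1.95-fold, adjusted p = 0.00363). Without the 6 arrays numbered 3, the excess of extraocular muscle over heart was 0.47 and did not pass (adjusted p = 0.117).

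Thrsp encodes Spot 14, a nuclear protein of lipogenic tissues that thyroid hormone and carbohydrate induce. Probe set 160306_at read 4148.3, 5293.5 and 4777.8 in extraocular mdx and 2874.5, 2539 and 3572 in extraocular dko. In heart it read 3303.1, 2806.8 and 2117.7 (mdx) and 1843, 958 and 1185.2 (dko), and in leg 1906.1, 2559 and 1872.7 (mdx) and 1611.2, 1550.5 and 1415.9 (dko). Extraocular muscle was higher than leg by 1.00 (2-fold, adjusted p = 0.00101) and than heart by 0.94 (1.92-fold, adjusted p = 0.000734). Heart and leg differed by 0.062 (95% interval -0.29 to 0.41, adjusted p = 0.883). In the order of the group means, extraocular mdx (4740 ± 574) stood apart from extraocular dko (2995 ± 527), and leg mdx (2113 ± 387) from leg dko (1526 ± 100). Extraocular dko, heart mdx and leg mdx overlapped from one to the next.

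Ucp1 is the defining protein of brown fat heat production. Its probe set 99507_at read 538.1, 1207.2 and 1952.6 in extraocular mdx and 52.3, 238.6 and 889.5 in extraocular dko. In heart it read 1627.9, 307.5 and 310.1 (mdx) and 422.2, 71.8 and 105.8 (dko), and in leg 65.5, 175.7 and 102 (mdx) and 37.5, 60.6 and 49.7 (dko). It lay above the 40th percentile on all 3 extraocular mdx arrays, on 1 array each of extraocular dko, heart mdx and heart dko, and on 0 leg arrays, so that the leg values are near the floor of the array. Extraocular muscle exceeded leg by 1.63 (3.11-fold, adjusted p = 0.0211). This call was lost without extraocular mdx array 3 (1.45, adjusted p = 0.0561), without extraocular dko array 3 (1.33, adjusted p = 0.0521) and without all arrays numbered 3 (1.14, adjusted p = 0.193).

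The other Ucp1 probe set, 161422_f_at, was dimmer. It read 271.6 to 497.1 over extraocular muscle, 243.4 to 639.5 over heart and 43.4 to 313.1 over leg. Its suffix is the manufacturer's mark for probes shared within a sequence family, so its signal may not be Ucp1 alone. It was 0.58 higher in extraocular muscle than in leg, which did not pass (adjusted p = 0.0755). It passed with the replicate number as a block (adjusted p = 0.018), a call lost without the arrays numbered 2 (adjusted p = 0.17) or 3 (0.185), and without leg dko array 1 (0.68, adjusted p = 0.0406).

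Over the 9 probe sets, 7 were called higher in extraocular muscle than in leg and 6 higher than in heart, and 0 lower. Of all probe sets tested, 7.74% were called between extraocular muscle and leg and 15.2% between extraocular muscle and heart. Between heart and leg 1 of the 9, Fasn, was called, beside 19.1% of all. The median log2 difference of the 9 was 1.76, 0.94 and 0.62 in these comparisons in turn, against -0.0094, -0.0154 and 0.0042 over all probe sets. Retn and both Ucp1 probe sets passed the filter mainly through groups where they were high, so these counts describe the probe sets and carry no test. Without leg mdx array 2, the array low in some fast-fibre genes, 7 of the 9 were called between extraocular muscle and leg and 1 between heart and leg.

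Arrays of the same replicate number deviated alike, and with the number as a block more probe sets passed. Between heart and leg the block added Adipoq (0.68, adjusted p = 0.0481 with and 0.309 without it), Retn (0.75, 0.0424 and 0.102) and Ucp1 161422_f_at (0.47, 0.0291 and 0.0933), all higher in heart. Without the arrays numbered 1 or 2, the blocked adjusted p was 0.335 or 0.114 for Adipoq and 0.417 or 0.229 for Retn, while both passed without those numbered 3 (0.0408 and 0.000696). For Ucp1 161422_f_at it was 0.0706, 0.103 and 0.102 without 1, 2 and 3 in turn, and the call was lost each time. The shares of all probe sets called rose with it to 20% between extraocular muscle and leg, 35.5% between heart and leg and 30.1% between extraocular muscle and heart. Heart mdx array 3, which was low in these genes, bears on the heart level. Without it Retn was 0.96 higher in heart than in leg (adjusted p = 0.0305) and Scd1 94056_at 1.09 higher (adjusted p = 0.0036). With it the limma adjusted p was 0.102 and 0.347. The array was singled out by its low values for these same genes, which partly fixed these calls, so they add no support. Without all arrays numbered 3, this one among them, Retn and Scd1 94056_at passed too (1.17, adjusted p = 0.00255, and 0.99, adjusted p = 0.0081). Scd1 94057_g_at then passed as well (1.14, adjusted p = 0.0228). Without leg dko array 1, Ucp1 161422_f_at passed (0.58, adjusted p = 0.0453).

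**Figure D2:**
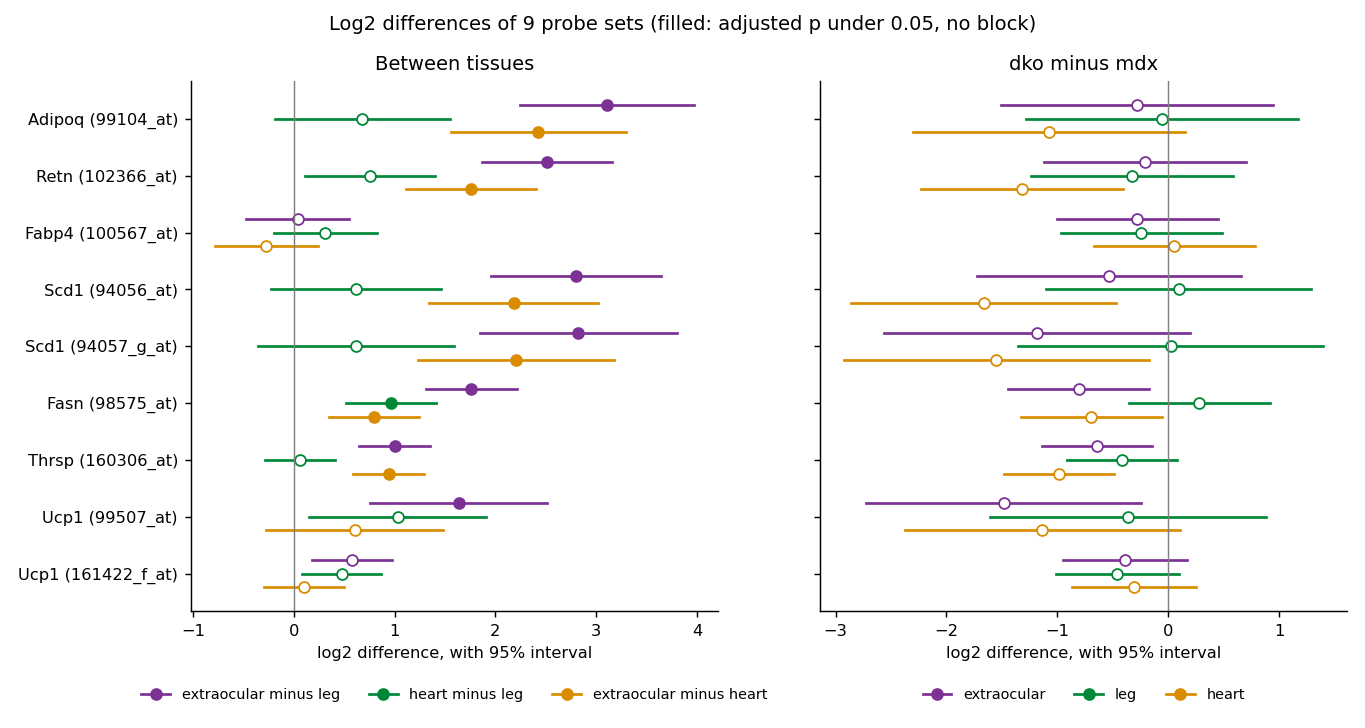
Log2 differences with 95% intervals between tissues (left; means of both genotypes) and between dko and mdx within each tissue (right), filled where the adjusted p is under 0.05 without the block. Adipoq, Scd1 and Retn show the largest tissue differences, 2.51 to 3.11 between extraocular muscle and leg, and 0 points are filled on the right.

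Other genes of the fat cell moved with Adipoq and Retn between tissues only in part. Of 13 genes listed for adipocyte identity, 9 were tested. Between extraocular muscle and leg, 3 were called higher and 1 lower in extraocular muscle (6 and 1 with the block), with a list median of 0.50. The 3 were the members Adipoq and Retn, and Rbp4 (1.43, adjusted p = 0.00033), which encodes the retinol carrier that fat and liver secrete. Agt, which encodes angiotensinogen, was 1.54 lower in extraocular muscle (log2 difference -1.54, adjusted p = 0.00585). Lep, which encodes the adipokine leptin, was not called. Its means were 2241 (mdx) and 3000 (dko) in extraocular muscle, 2975 and 3285 in heart and 2238 and 2293 in leg. Against heart 5 of 9 were higher in extraocular muscle and 0 lower, Cebpa (0.97), a transcription factor of fat cell differentiation, and Aoc3 (0.84), a surface amine oxidase of fat and smooth muscle, being added. Between heart and leg 1 was higher in heart, Pparg (0.62, adjusted p = 0.0496), and Agt was lower (-1.41), with 3 and 2 called with the block. Counts in this and the following lists stand beside the shares of all probe sets called. These were 7.74% (extraocular against leg), 15.2% (extraocular against heart) and 19.1% (heart against leg), and 20%, 30.1% and 35.5% with the block.

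Of 19 genes listed for fatty acid synthesis, 12 were tested, and 7 of these were called higher in extraocular muscle than in leg, 3 of the 7 being members, beside the 7.74% of all probe sets called. All 12 had a positive difference, with a median of 0.67, and 5 did not pass. Besides the members Scd1, Fasn and Thrsp these were Scd2 (1.40), a sister desaturase, Elovl5 (1.26), which elongates polyunsaturated fatty acids, Slc25a1 (0.66), which exports citrate from mitochondria, and Acly (0.61), which splits that citrate into acetyl-CoA. Against heart 6 were higher in extraocular muscle, among them Scd2 (2.04) and Elovl6 (1.09), the elongase of saturated chains. Between heart and leg 3 were higher in heart and 0 lower, Fasn, Elovl5 (0.56) and Me1 (0.54), the malic enzyme that supplies NADPH, with 5 and 2 called with the block. Of all probe sets 19.1% were called between heart and leg, and 35.5% with the block. The Scd2 probe set carries the suffix of a shared sequence family, so Scd1 RNA may add to its signal.

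Genes that store, release or take up fatty acids split differently. In the list for triglyceride storage (13 of 17 tested), Pck1 (2.36), Cidea (1.52) and Lipe (0.97) were higher and Gpd1 lower (-1.17) in extraocular muscle than in leg. Pck1 makes glycerol phosphate precursor in fat, Cidea coats lipid droplets, Lipe is hormone-sensitive lipase and Gpd1 makes glycerol phosphate from a glycolytic intermediate. With the block 6 were higher and 2 lower. Heart had Cidea (1.48), Lipe (1.28) and Mgll (1.17), the monoglyceride lipase, higher than leg and Gpd1 lower (-2.49), and 7 and 1 with the block. In the list for uptake and binding (6 of 7 tested), Lpl (1.80), the lipase of the vessel wall, Cd36 (1.54), a fatty acid transporter, and Fabp3 (0.98), the carrier of muscle, were higher in heart than in leg. The same 3 were lower in extraocular muscle than in heart (-1.15, -0.81 and -1.14), and Lpl (0.65) was the gene of that list called higher in extraocular muscle than in leg (3 with the block).

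In the list for brown fat (7 of 12 tested), Ucp1 and Cidea were the genes called higher in extraocular muscle than in leg, and 4 were with the block. Heart had Cidea, Ppargc1a (1.16), a coactivator of mitochondrial genes, and Cox7a1 (0.77), a respiratory chain subunit of muscle and brown fat, higher than leg. Dio2 (-0.81), which activates thyroid hormone, and Ucp3 (-0.75), an uncoupling protein relative of muscle, were lower in heart. Against heart, extraocular muscle had Dio2 higher (1.12) and Cox7a1 lower (-0.78), and Ucp1 differed by 0.61 with an adjusted p of 0.426.

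Markers of other cells moved between tissues as well. Of 18 genes listed for eye glands and epithelium, 16 were on the array and 12 tested. Krt19 (1.43), Amy1 (1.38) and Muc1 (1.12), an epithelial keratin, an amylase and a mucin, were higher in extraocular muscle than in leg, and the list's median was 0.009. Summed intensities of the 16 ran from 6378 to 14275 over extraocular muscle, 5508 to 14696 over leg and 4861 to 15093 over heart. Pigr alone read 792.4 to 6085.9, 1350.7 to 8456.4 and 1392.7 to 8701.9 in these tissues in turn. It makes up much of the sums, so their overlap says little about the other genes of the list. Pip, a protein of lacrimal and salivary glands, read at most 108.3 on any array, and Epcam, an epithelial adhesion protein, at most 197.7. Of 10 endothelial genes tested, 3 were higher in extraocular muscle and 7 in heart than in leg. Of 16 macrophage genes 5 and 7 were lower, beside 7.74% and 19.1% of all probe sets called. The part of these cells in the members' levels was not tested.

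Patterns over the 18 arrays were compared by Pearson's r of log2 values with every other named probe set tested, as a description in which the points share tissue and array. The genes most like Adipoq were Cyp2e1 (0.971), a cytochrome of liver and fat, Cdo1 (0.954), cysteine dioxygenase, and Pck1 (0.921). Cdo1 was also the gene most like Retn (0.92), Scd1 (0.92) and Fasn (0.894). Its values were 2986.6 to 3810.9 in extraocular mdx, 2441.8 to 3214.2 in extraocular dko, 294.8 to 994.8 in heart mdx, 346.4 to 761.7 in heart dko and 180.3 to 329.2 in leg. Thrsp was most like Vapb (0.834), Amy1 (0.821) and Slc25a1 (0.811). Fabp4 was most like Serpina1c (0.89), Ldb2 (0.886) and Stmn3 (0.885). For Ucp1 the highest values were lower, 0.787 with Ilkap, 0.784 with Gstz1 and 0.776 with Krt13.

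Whether loss of utrophin besides dystrophin changed these genes was asked within each tissue. In extraocular muscle all 9 probe sets had a negative difference (dko minus mdx), from -1.48 to -0.21 with a median of -0.54, against -0.0062 over all probe sets, and 0 were called without the block. Of all probe sets 0.0225% were called. Fasn, at 2760.4 to 3830.2 in dko and 4455.3 to 7229.9 in mdx, did not overlap between genotypes, with a difference of -0.81 (95% interval -1.44 to -0.17, adjusted p = 0.9999). Neither did Thrsp (-0.64), Scd1 94056_at (-0.54) or Ucp1 161422_f_at (-0.39), each at an adjusted p of 0.9999. The last of these passed the filter through mdx arrays alone, so a lower level in dko was partly fixed by the filter. These 4 of the 9 stand beside 2.66% of all probe sets that were lower in dko with no overlap in this tissue.

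Ucp1 99507_at fell in extraocular muscle only with the replicate block (-1.48, adjusted p = 0.0316 with and 0.9999 without it), which called 1 of the 9 probe sets and 0.158% of all. The dko array was the lower in each of the 3 pairs of the same number, although the groups overlapped. Its 3 extraocular mdx arrays were enough to pass the filter, against 1 above the 40th percentile in dko, so a lower level in dko was partly fixed. With the arrays of any 1 number left out, the blocked adjusted p was 0.295 to 0.324 and the call was lost. The difference was then -1.35 to -1.72, and 0 of all probe sets passed, against 14 in the full block fit.

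In leg, 6 of the 9 differences were negative and 3 positive, from -0.46 to 0.28 with a median of -0.24, against -0.0399 over all probe sets. The count called was 0 with and without the block, where 0.0563% and 1.2% of all probe sets were called. Thrsp (-0.42, 95% interval -0.91 to 0.078, adjusted p = 0.938) and Ucp1 99507_at (-0.36, adjusted p = 0.9997) were lower in dko with no overlap, the latter near the floor of the array. These 2 of the 9 stand beside 4.93% of all probe sets lower in dko with no overlap. Fasn was 0.28 higher and Scd1 0.093 and 0.024 higher at its probe sets, all with adjusted p of 0.9997.

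In heart, 8 of the 9 differences were negative, with a median of -1.08 against -0.012 over all probe sets, and 0 were called with or without the block. Limma called 0% of all probe sets there in both fits, with 130 and 494 at an unadjusted p under 0.05. The widest differences were those of Scd1 (-1.66 and -1.55), Retn (-1.31) and Ucp1 99507_at (-1.14), each at an adjusted p of 1. Retn and Thrsp (-0.98, 95% interval -1.48 to -0.49) were lower in dko with no overlap, 2 of the 9 beside 2.16% of all probe sets. For Retn the gap was narrow, 225 on dko array 1 against 244.9 on mdx array 3. Both of these values and the other dko values lay below the 40th percentile. Fabp4 was the 1 with a positive difference (0.056, 95% interval -0.67 to 0.78).

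The mdx heart arrays differed widely among themselves for most of these genes. Of them, arrays 1 and 2 exceeded array 3 for Adipoq (3160.3 and 2666.9 against 667), Retn (989.3 and 684.5 against 244.9), Scd1 (13667.9 and 14453.8 against 1866.3) and Fasn (4407.5 and 4168.1 against 1784.6). Thrsp had the same order with a smaller gap (3303.1 and 2806.8 against 2117.7). Cdo1, at 994.8 and 993.7 against 294.8, and Pck1, at 978.6 and 846.5 against 226, did the same. Both were picked for their likeness to members over these same arrays, which partly fixed this, so they add no support. Fabp4, at 2164.8, 2344.8 and 2201.3, and Ucp1, high on array 1 alone, did not show this order. Among dko hearts array 1 was the highest for Adipoq, Retn, Fabp4, Scd1 94056_at, Fasn, Thrsp and Ucp1. Without heart mdx array 3, the Scd1 94056_at difference was -2.60 and was called (adjusted p = 0.0182), the 1 probe set of all then called in heart. That array was singled out by its low values, Scd1 among them, which partly fixed this call, so it adds no support. With all heart arrays the difference was -1.66 and was not called.

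**Figure D3:**
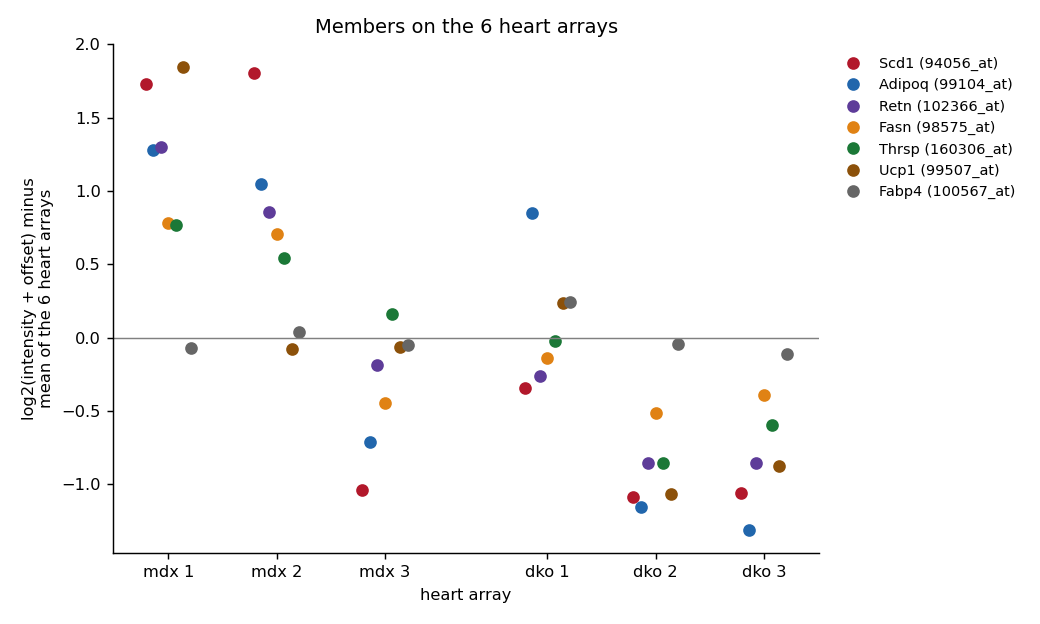
Log2(intensity + 166.7) of 1 probe set per member on each of the 6 heart arrays, minus that probe set's mean over the 6. Adipoq, Retn, Scd1 and Fasn are above 0 on mdx arrays 1 and 2 and below it on mdx array 3, and Fabp4 stays near 0 on all 6.

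Did the genotype difference itself vary between tissues? Limma called such a difference between tissues for 0 of the 9 probe sets, with or without the block. The shares of all probe sets called were 0% and 0.0338% (extraocular against leg), 0% and 0.0675% (heart against leg) and 0% in both fits (extraocular against heart). Without the block 180, 259 and 124 probe sets had an unadjusted p under 0.05 in these comparisons. Among the members these were Fasn in extraocular muscle against leg (-1.09, adjusted p = 0.9999) and in heart against leg (-0.97, adjusted p = 0.9997), and Scd1 94056_at in heart against leg (-1.76, adjusted p = 0.9997). For Fasn and Scd1 the dko level was lower in extraocular muscle and heart and slightly higher in leg, none of these differences being called. They are therefore not shown to differ between tissues.

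Thrsp and Ucp1 99507_at were lower on the dko array in all 9 pairs of the same tissue and number, as 1.26% of all probe sets were. Ucp1 161422_f_at was too, but it passed the filter through mdx arrays alone, so its count supports nothing. Ucp1 99507_at would not have passed on its dko arrays alone. These lay above the 40th percentile on 1 array in extraocular muscle, 1 in heart and 0 in leg, so its count was partly fixed by the filter too. The other 6 probe sets had 2 or 3 pairs with the dko array higher. The mean of the 3 genotype differences was taken as a contrast after these values had been seen. It was -0.68 for Thrsp (95% interval -0.97 to -0.39, 1.6-fold lower, adjusted p = 0.104 without and 0.027 with the block) and -0.99 for Ucp1 99507_at (95% interval -1.71 to -0.28, 1.99-fold lower, adjusted p = 0.569 and 0.0105). Ucp1 161422_f_at, at -0.39, did not pass in either fit (adjusted p = 0.749 and 0.15).

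Of the 9 probe sets 0 passed without the block and 2 with it, beside 0.09% and 0.788% of all probe sets. With the arrays of any 1 number left out, the blocked adjusted p was 0.163 to 0.201 for Thrsp and 0.107 to 0.153 for Ucp1, and both calls were lost. The differences were then -0.51 to -0.77 for Thrsp and -0.91 to -1.14 for Ucp1. Of all probe sets 0, 3 and 0 passed without the numbers 1, 2 and 3, against 70 in the full block fit. The loss was thus not particular to these 2. If tissues came from the same animals, which the labels do not say, these p-values are too small.

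**Figure D4:**
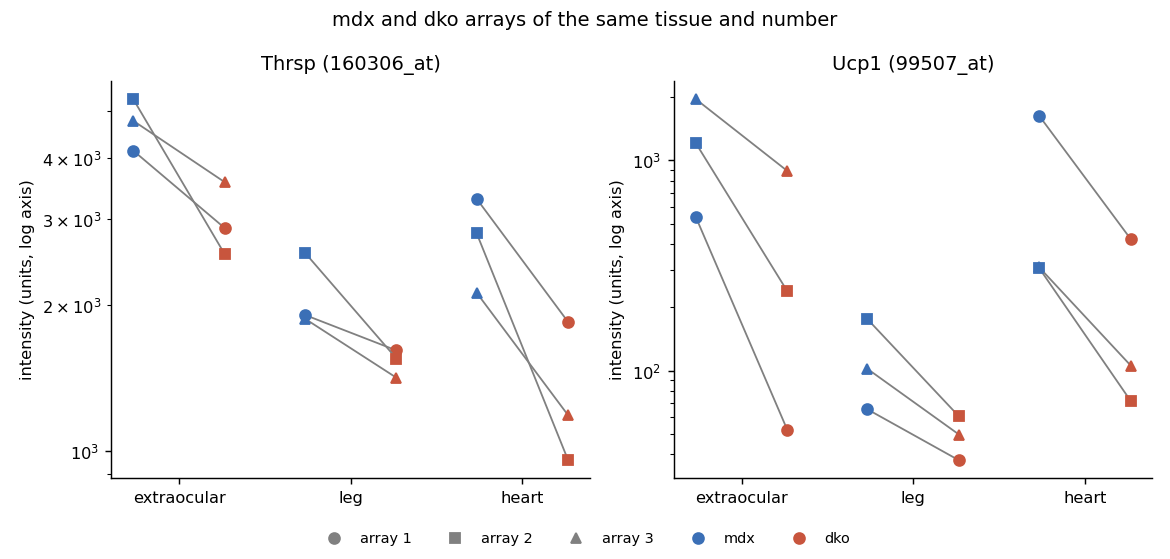
Intensity (log axis) of Thrsp (160306_at) and Ucp1 (99507_at) on the mdx (left point, blue) and dko (right point, red) arrays of the same tissue and number, joined by lines. Each of the 9 lines goes down in both panels, and the genotypes overlap for Ucp1 in extraocular muscle and heart.

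The lists around the members showed little between genotypes. In the lists for adipocyte identity, fatty acid synthesis, triglyceride storage, uptake and brown fat, 0 genes were called in any tissue without the block, and with it Ucp1 in extraocular muscle was the 1 call. In the mean of the 3 tissues the block added Me1 (-0.52, adjusted p = 0.0497 with and 0.205 without it) and Gpam (-0.42, 0.0366 and 0.218), which starts triglyceride assembly, to Thrsp and Ucp1. The median of the synthesis list was -0.11 in extraocular muscle, 0.092 in leg and -0.30 in heart. Of 16 macrophage genes tested, 15 had a positive difference in extraocular muscle (1 called without and 3 with the block) and 16 in leg (0 and 3). Their summed intensities were 58858 to 64184 in dko and 27081 to 33100 in mdx extraocular muscle, with no overlap. In leg the sums were 67802 to 130949 and 36443 to 69629, and in heart 37277 to 41434 and 37372 to 40212, both overlapping. The part of the macrophage share in the members' levels was not tested.

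Most markers of glands, epithelium and vessels had negative differences in extraocular muscle too, and 0 of them were called with or without the block. In the list for eye glands and epithelium 1 of 12 genes tested had a positive difference, with a median of -0.30, and the sums ran from 6378 to 11527 in dko and 8118 to 14275 in mdx, with overlap. Pigr, part of these sums, read 792.4 to 5285.9 in dko and 1187.8 to 6085.9 in mdx. In leg 5 and in heart 2 of the 12 had a positive difference, with list medians of -0.14 and -0.21. Sfn of this list, an epithelial 14-3-3 protein, read 146.9 to 328 in dko and 648.6 to 1026.7 in mdx extraocular muscle, with no overlap. In this tissue 2.66% of all probe sets were lower in dko with no overlap. Krt19 read 193.8 ± 115 and 813.2 ± 547 (SD, n = 3). Of 10 endothelial genes 0 had a positive difference, with a median of -0.15, and their sums overlapped at 21709 to 28572 and 25263 to 36406. The part of these cells in the members' genotype differences was not tested.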

How the data were processed

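The deposited values are intensity on a linear scale, 1 column per array. They had been scaled by the authors to trimmed means of 1500.69 to 1501.15 (2% off each tail), which the columns themselves show; which software made them is not given in the sources here. Of 12488 probe sets, 66 controls were left out. Symbols came from the platform annotation of 2016 (10833 probe sets with 1 symbol, 396 with several, 1193 with none), and 8888 probe sets passed the filter. Values were used as deposited.

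The 6 group means were fitted on log2(intensity + 166.7) by limma 3.58.1 (R 4.3.3; functions lmFit, contrasts.fit and eBayes; 12 residual and 3.52 prior degrees of freedom), tested on simulated data. P-values were two-sided and adjusted by Benjamini and Hochberg over all 8888, with calls at an adjusted p under 0.05. The number of arrays limits the precision.

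The replicate number came from the labels. Deviations of same-numbered dko and mdx arrays of a tissue correlated at 0.404 to 0.751 across genes (9 pairs), so fits with it as a block are given (within tissue for genotypes, 6 residual degrees of freedom; common to all arrays for tissues, 10).

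The members and gene lists were chosen with earlier results of these data known. Of each list, up to 5 called genes with the widest difference are named, a gene being represented by its brightest probe set, with the 3 genes most like each member. Figures: matplotlib 3.10.9 under Python 3.11.15. Alternatives were another scaling (75th percentile, quantile), an offset of 16, no filter, the block and arrays left out.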

Additional observations from a re-analysis of the deposited data

How the results depend on the processing

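Of 1143 values of the members' 66 differences under alternatives, 1096 kept their direction and their side of the threshold. A further 18 passed where the fit as reported did not, and 8 no longer passed. The remaining 21 turned direction, none of these 21 in a difference that was called. Most of the 66 differences were not called in the fit as reported, so for them keeping their side of the threshold says little. The causes of the changes were not tested.

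Member calls moved with the block to 1 (dko against mdx, extraocular), 4 (heart against leg), 2 (mean of the 3 tissues) and from 7 to 8 (extraocular against leg). Without the 6 arrays numbered 3, 4 were called between heart and leg. Leaving out 1 array gave 0 to 1 in heart (dko against mdx), 1 to 3 between heart and leg and 6 to 8 between extraocular muscle and leg. Over all probe sets, the dko against mdx count in extraocular muscle was 0 with 75th percentile scaling, 14 with the block, 0 without the arrays numbered 3 and 0 to 0 with 1 array left out. In leg it was 1 with an offset of 16, 107 with the block, 0 without the arrays numbered 3 and 1 to 17 with 1 array left out. In heart it was 0 to 1 with 1 array left out. For the mean of the 3 tissues it was 5 with quantile normalization, 5 with an offset of 16, 70 with the block, 0 without the arrays numbered 3 and 0 to 16 with 1 array left out. Genotype differences between tissues gave 3 (extraocular against leg) and 6 (heart against leg) with the block, and 0 to 2 and 0 to 1 with 1 array left out. The block gave 1775, 3153 and 2679 between extraocular muscle and leg, heart and leg, and extraocular muscle and heart.

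Leaving out 1 array gave these ranges for differences that turned direction. For dko against mdx they were -0.71 to 0.082 (Retn, extraocular), -0.58 to 0.093 (Fabp4, extraocular), -0.30 to 0.35 (Adipoq, leg), -0.58 to 0.079 (Fabp4, leg), -0.27 to 0.37 (Scd1 94056_at, leg), -0.22 to 0.29 (Scd1 94057_g_at, leg) and -0.052 to 0.13 (Fabp4, heart). Between tissues they were -0.12 to 0.22 (Fabp4, extraocular against leg) and -0.056 to 0.15 (Thrsp, heart against leg). Without the arrays numbered 3, Scd1 94056_at in leg turned to -0.32, and the excess of extraocular muscle over heart turned to -0.034 for Ucp1 161422_f_at and -0.12 for Ucp1 99507_at.

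Depth of signal limits Ucp1 and Retn, which lay below the 40th percentile on all 6 leg arrays. Retn lay below it on all 3 heart dko arrays as well. On such arrays the offset sets much of the log2 value.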
